A study of Homo sapiens with 54 samples.

Results

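The 10 genes described here encode 6 subunits of the transcription factor AP-1 (FOS, FOSB, FOSL2, JUN, JUNB and JUND) and 4 other products of the immediate early response (EGR1, IER2, IER3 and DUSP1). They were chosen by symbol from the 27978 genes of the deposited count table, and all 10 passed the filter on low counts in every comparison. The 54 libraries, in 18 groups of 3 that the submitters call biological replicates, hold RNA of MDA-MB-231, a widely used cell line derived from a metastatic breast tumor. Cells were left untreated or received Compound Kushen Injection (CKI), an extract of medicinal plants, at 2 mg/ml, or mixtures reconstituted from its components at the equivalent of that dose. At both 24 h and 48 h, batch 1 held untreated cells, CKI, CKI without oxymatrine and oxysophocarpine (N-OmtOspc, labelled N_2), CKI without these and macrozamin (N-MacOmtOspc, labelled N_3), oxymatrine with oxysophocarpine alone (OmtOspc, labelled OO), and these with macrozamin (MacOmtOspc, labelled MOO). Batch 2 was sampled at 48 h and held untreated cells, CKI, and CKI without macrozamin (N-Mac), N-methylcytisine (N-Nme), oxymatrine (N-Omt) or trifolirhizin (N-Tri). All groups shared 1 cell line and a medium with 10% fetal bovine serum, and every treatment of a time and batch was compared with the same 3 untreated libraries.

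AP-1 is a dimer of leucine zipper proteins. Fos proteins bind DNA only as partners of Jun proteins, whereas Jun proteins also pair with each other, and the makeup of the dimer sets how strongly it activates its target genes. Immediate early genes are transcribed from preformed factors within minutes of a growth factor or stress signal, through MAP kinases that act on SRF with its ELK partners, on CREB and ATF factors and on JUN itself. The response is usually brief, since the RNAs are short lived and products such as the phosphatase DUSP1 switch the kinases off. In invasive breast cancer cells AP-1 is known for driving collagenase, urokinase and cytokine genes. The libraries here were taken at 24 and 48 h after the addition of the treatments.

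Expression is given as counts scaled to a TMM-adjusted library total of 1000000 (CPM). A gene was called differentially expressed (DE) where edgeR's quasi-likelihood test, adjusted by the Benjamini-Hochberg method over all genes of the fit, gave a p under 0.05. Library totals were between 17673537 and 26138924 counts with a median of 22568666.5. The biological coefficient of variation was 0.175 at 24 h, 0.0763 at 48 h in batch 1 and 0.0480 in batch 2, so small differences could be called at 48 h that could not be called at 24 h. Of the markers of this line, VIM lay between 501 and 1568 CPM and CD44 between 331 and 703 CPM in all libraries, while ESR1 did not pass 0.347 CPM and PGR 0.0929 CPM. KRT19, listed among the markers expected to be low, lay between 278 and 888 CPM. The 6 markers expected to be high themselves moved with treatment, 2 being higher and 4 lower with CKI at 48 h in each batch. The fibroblast markers DCN and PDGFRA did not pass 0.759 and 0.796 CPM, and COL1A1 lay between 8.46 and 66.1 CPM. At 24 h, CKI replicate 1, OmtOspc replicate 2 and N-MacOmtOspc replicate 2 carry no number after the treatment code in their labels, and several of the 10 genes stood apart in them. Results at 24 h are therefore given with and without these 3 libraries. Since the values of these genes entered that choice, calls made without the 3 libraries are not an independent test of them. In bulk RNA, more transcript in every cell and more cells that transcribe a gene cannot be told apart.

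FOSB, JUNB, JUND and IER2 lie on chromosome 19, EGR1 and DUSP1 on chromosome 5, FOS on chromosome 14, FOSL2 on chromosome 2, JUN on chromosome 1 and IER3 on chromosome 6. The promoters of 9 of the genes were at hand in RefSeq (GRCh38.p14), IER3 being the exception, and the 250 bases before the start that its promoter table uses for each were searched on both strands. That start can differ from the gene's end in the annotation used for exon lengths. By that annotation the windows of FOS and FOSB reach into the gene, and those of FOSL2 and JUN lie wholly inside it. The windows of EGR1, DUSP1 and JUND, the 3 of the 9 with a CArG box or a full CRE, are shown 5′ to 3′ on the strand of the gene. Capitals mark the CRE (TGACGTCA, bound by CREB and ATF factors), CArG boxes (bound by SRF) and the site of EGR proteins (GCGNGGGCG). The window of FOSB, the gene with the largest rise (3.30 with N-OmtOspc at 48 h), holds neither. A link between these sites and the responses was not tested.
EGR1, chr5:138465229-138465478, plus strand: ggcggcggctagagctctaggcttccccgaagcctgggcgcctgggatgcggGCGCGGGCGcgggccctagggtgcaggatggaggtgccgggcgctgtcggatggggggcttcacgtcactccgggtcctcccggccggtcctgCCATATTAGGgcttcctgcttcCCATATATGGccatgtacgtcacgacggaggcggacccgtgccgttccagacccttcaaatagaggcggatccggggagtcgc
DUSP1, chr5:172771196-172771445, minus strand: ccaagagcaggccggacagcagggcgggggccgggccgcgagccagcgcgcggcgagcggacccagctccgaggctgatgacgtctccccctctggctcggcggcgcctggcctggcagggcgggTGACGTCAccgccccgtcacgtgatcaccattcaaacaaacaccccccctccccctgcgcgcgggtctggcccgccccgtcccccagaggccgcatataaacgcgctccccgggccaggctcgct
JUND, chr19:18281623-18281872, minus strand: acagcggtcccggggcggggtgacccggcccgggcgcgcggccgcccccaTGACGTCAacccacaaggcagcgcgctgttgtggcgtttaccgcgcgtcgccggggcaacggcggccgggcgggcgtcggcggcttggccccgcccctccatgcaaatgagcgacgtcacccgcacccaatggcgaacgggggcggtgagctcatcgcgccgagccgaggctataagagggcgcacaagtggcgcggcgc
EGR1 was the 1 gene of the 9 with CArG boxes, at positions -105 to -96 and -83 to -74 (position -1 is the last base before the start), and 1.16% of 35116 promoters of the same length hold a CArG box. Its EGR site lay at -198 to -190, and 8.42% of the promoters hold one. A full CRE was found in DUSP1 at -125 to -118 and in JUND at -200 to -193, against 1.65% of all promoters. JUN held the related octamer TGACATCA at -67 to -60, and 6.87% of the promoters match TGACNTCA, which includes the CRE. The core TGACG, which overlaps the CRE, occurred in 9 of 9 windows and in 21.2% of all promoters. The AP-1 site TGANTCA occurred in 0 of 9, against 6.57% of all promoters, and TATAAA in 4 of 9 (FOS, FOSB, JUNB and DUSP1), against 10.7%. These matches describe the letters of the windows only.

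Untreated cells already expressed all 10 genes. Per kilobase of annotated exons, the stress-inducible survival factor IER3 and the Jun protein JUND were the most abundant in each untreated group, at 330 ± 23.5 and 258 ± 2.29 CPM per kb (SD, n = 3) at 24 h, 367 ± 19.4 and 387 ± 65.1 at 48 h in batch 1, and 545 ± 90.9 and 147 ± 19.0 in batch 2. At 48 h in batch 1 this pair overlapped within its spread. JUN followed at 70.8 to 92.3 CPM per kb, then IER2, JUNB, FOSL2, DUSP1, EGR1, FOS and FOSB in the same order in all 3 groups. IER2 and JUNB were close at 48 h, with 57.3 ± 3.44 and 55.7 ± 7.89 CPM per kb in batch 1, and so were EGR1 and FOS at 24 h, with 18.9 ± 1.94 and 18.2 ± 1.84. FOSB was the lowest by far at 0.572 to 0.948 CPM per kb. The RNAs of JUN, JUNB and JUND were thus more abundant per kilobase than those of FOS and FOSB before treatment.

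Treatment raised these genes far more often than it lowered them. Over 15 comparisons with untreated cells, the 10 genes gave 150 tests, of which 98 were DE and higher, 6 DE and lower, and 46 not DE. With all libraries in the fits, JUN and IER3 were higher in 15 of 15 comparisons and DUSP1 in 14. EGR1 was higher in 9, FOSB in 9 and lower in 1, JUND in 8, IER2 in 8 and lower in 1, FOSL2 in 7 and lower in 2, JUNB in 7 and lower in 1, and FOS in 6 and lower in 1. The comparisons of a time and batch share their untreated libraries, so these counts are not independent. The share of all genes called was itself high. At 48 h in batch 1, CKI changed 9 of the 10 genes against 54.0% of all genes tested, N-OmtOspc 10 against 76.6%, N-MacOmtOspc 8 against 71.1%, OmtOspc 6 against 57.8% and MacOmtOspc 7 against 51.2%. In batch 2, CKI changed 9 against 66.4%, N-Mac 7 against 72.4%, N-Nme 9 against 71.3%, N-Omt 9 against 78.2% and N-Tri 8 against 72.2%. At 24 h, CKI changed 4 against 30.0%, N-OmtOspc 6 against 62.1%, N-MacOmtOspc 7 against 45.0%, OmtOspc 2 against 16.7% and MacOmtOspc 3 against 10.5%. Many of these counts were near the background, among them those of OmtOspc, N-MacOmtOspc, N-Mac and N-Tri at 48 h and of N-OmtOspc and OmtOspc at 24 h. The direction was less even. Over the 15 comparisons 5.61% to 38.4% of all genes were higher and 4.84% to 39.9% lower. All genes tested split about equally between higher and lower (with N-OmtOspc at 48 h, 38.3% higher and 38.3% lower), whereas the 10 genes DE with N-OmtOspc at 48 h were all higher. In some comparisons the even split of all genes came with the TMM scaling, and in others it changed little. For N-MacOmtOspc at 24 h, 51.6% of DE genes were higher with TMM and 52.0% by library totals alone. For N-OmtOspc at 48 h the shares were 49.9% and 53.7%. With libraries scaled by their totals alone, the share of DE genes that were higher went from 50.2% to 34.4% for N-OmtOspc at 24 h, where the median of all genes moved by -0.31 on the log2 scale, and at 48 h in batch 1 from 50.1% to 60.1% for CKI, from 50.4% to 61.5% for OmtOspc, where the median moved by 0.11, and from 50.2% to 60.5% for MacOmtOspc. The 10 genes with N-OmtOspc at 48 h were all called and higher under that scaling too. With N-Nme they were not, 5 being higher and 4 lower against 35.9% and 35.4% of all genes. In 1 fit of all 54 libraries 4 were called with N-Nme, all higher (JUN, EGR1, IER3 and DUSP1), and the calls of FOS, FOSB, JUNB, JUND and IER2 were lost. The share of all genes called in that fit is not given here.

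**Figure D1:**
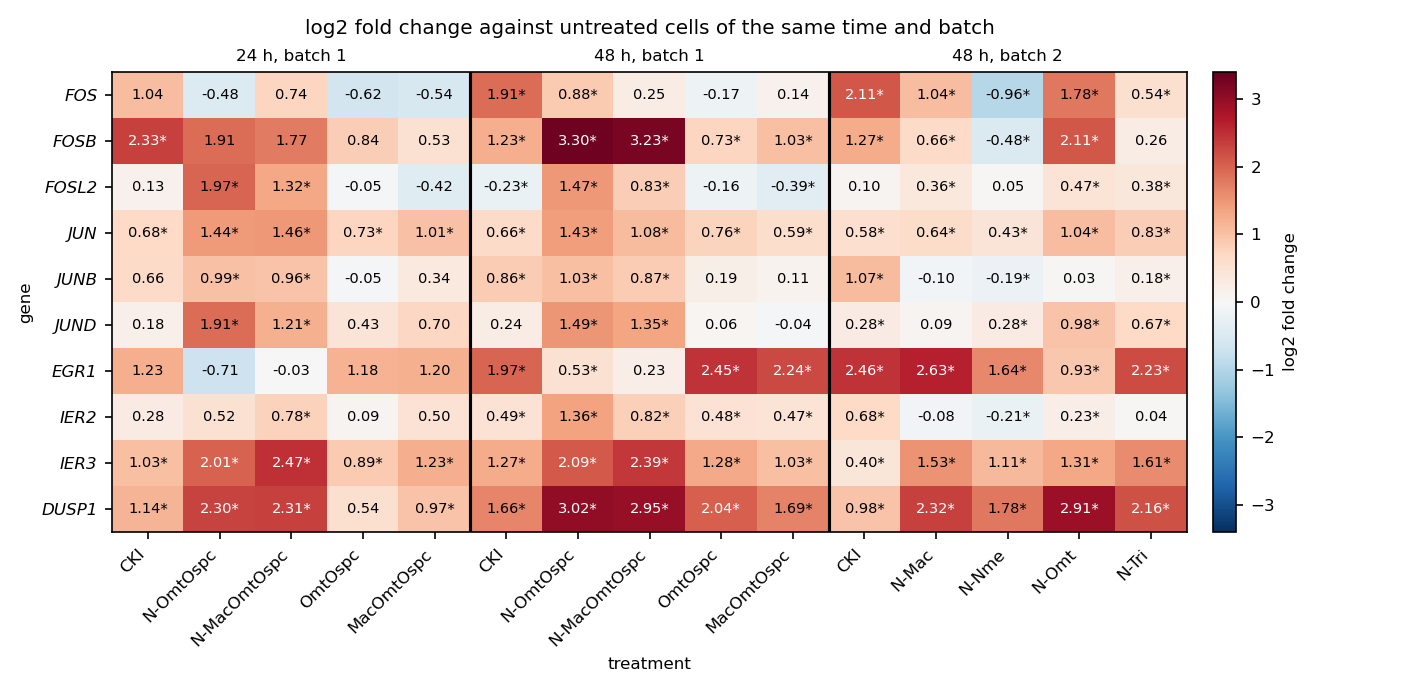
Log2 fold change of each of the 10 genes (rows) against untreated cells of the same time and batch for the 15 treatments (columns), each from 3 against 3 libraries; an asterisk marks an adjusted p under 0.05. With all libraries in the fits, the rows of JUN and IER3 are positive and called throughout, and the lowest value is that of FOS with N-Nme, -0.96.

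FOS, the classical inducible partner of JUN, rose with CKI at 48 h and reached its highest 48 h level there. In batch 2 the untreated libraries had 23.3, 31.8 and 22.5 CPM and the CKI libraries 115, 109.7 and 111 CPM, a log2 fold change of 2.11 (SE 0.16, adjusted p = 3.74e-13). In batch 1 they had 21.1, 24.1 and 25.5 and 76.5, 102 and 86.9 CPM, a log2 fold change of 1.91 (SE 0.15, adjusted p = 4.28e-10). The groups did not overlap in either batch. Every removal of a single compound left FOS lower than CKI did. N-Omt came closest with 91.1, 87.6 and 87.99 CPM, N-Mac had 52.1, 54.2 and 53.5 CPM, and N-Nme had 12.6, 14.5 and 12.7 CPM. The N-Nme libraries all lay below the 3 untreated libraries, with log2 fold changes of -0.96 (SE 0.19, adjusted p = 4.4e-05) against untreated cells and -3.08 (SE 0.17, adjusted p = 2.14e-16) against CKI. In 1 fit of all 54 libraries the call of FOS with N-Nme against untreated cells was lost. N-Tri replicates 1 and 2 lay inside the untreated range and replicate 3 above it, with 26.8, 26.2 and 59.3 CPM, and the call against untreated cells (0.54 on the log2 scale, adjusted p = 0.00535) was lost without replicate 3, when the value was 0.035. In batch 1 the alkaloid mixtures OmtOspc and MacOmtOspc had mean FOS levels of 20.96 ± 1.93 and 25.9 ± 1.05 CPM (SD, n = 3) against 23.6 ± 2.24 CPM in untreated cells and were not DE. N-OmtOspc raised FOS by 0.88 on the log2 scale (adjusted p = 1.33e-05), and with N-MacOmtOspc the value was 0.25 (95% confidence interval -0.064 to 0.57) and not DE.

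FOSB, a Fos protein that is usually silent without a stimulus, showed a different order. Its largest responses at 48 h were to the mixtures without oxymatrine, which in batch 1 also lacked oxysophocarpine. At 48 h in batch 1 the untreated libraries had 2.88, 3.03 and 3.63 CPM, N-OmtOspc 33.1, 29.00 and 32.1 CPM and N-MacOmtOspc 40.1, 23.3 and 26.2 CPM. The log2 fold changes were 3.30 (SE 0.20, adjusted p = 7.48e-13) and 3.23 (SE 0.20, adjusted p = 1.54e-12), and both mixtures lay above CKI, which had 5.33, 9.24 and 7.66 CPM. In batch 2, N-Omt had 20.1, 20.4 and 19.5 CPM against 4.19, 5.13 and 4.67 CPM in untreated cells and 13.6, 10.8 and 9.32 CPM with CKI. N-Omt was the 1 single removal with more FOSB than CKI, by 0.84 (SE 0.13, adjusted p = 4.81e-07). N-Nme lowered it to 3.55, 2.91 and 3.50 CPM, below the untreated range, with a log2 fold change of -0.48 that was called (adjusted p = 0.0207) but not without untreated replicate 2 (-0.41) or N-Nme replicate 2 (-0.39). The FOSB gene overlaps ERCC1 on the opposite strand, and the strand setting of the counting was not given in the sources used here.

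EGR1, a zinc finger factor that shares its induction through SRF with FOS, was lower with the mixtures without oxymatrine than with CKI, where FOSB was higher. In batch 1 at 48 h it was high with CKI (159, 239 and 219 CPM), OmtOspc (269, 317 and 272 CPM) and MacOmtOspc (246, 259 and 239.6 CPM) and lay near the untreated 48.8, 48.4 and 60.1 CPM with N-OmtOspc (67.7, 77.6 and 81.9 CPM) and N-MacOmtOspc (71.5, 50.7 and 61.8 CPM). Against untreated cells the log2 fold change was 2.45 (SE 0.13, adjusted p = 8.41e-13) with OmtOspc and 0.53 with N-OmtOspc, and the value of 0.23 with N-MacOmtOspc was not DE. No library of these last 2 mixtures reached the lowest library of CKI or of the alkaloid mixtures. In batch 2 the untreated libraries had 30.5, 38.2 and 27.9 CPM, CKI 186, 168 and 177 CPM, N-Mac 187, 218 and 194 CPM and N-Omt 61.3, 56.96 and 65.4 CPM. Against CKI, EGR1 changed by -1.53 (SE 0.16, adjusted p = 2.42e-10) with N-Omt. With N-Nme it had 91.4, 107 and 103 CPM and changed by -0.82 (SE 0.15, adjusted p = 1.65e-05). For N-Mac and N-Tri the differences from CKI were 0.17 (95% confidence interval -0.13 to 0.47) and -0.23 (95% confidence interval -0.53 to 0.072), neither DE, and N-Tri replicate 3 stood apart with 231 CPM against 109 and 112. Thus FOS and EGR1, although both classical SRF targets, differed with N-Mac, OmtOspc and MacOmtOspc at 48 h, where the mean of EGR1 lay above that with CKI and FOS was lower than with CKI. The CArG boxes printed above lie in the EGR1 window, and the FOS window of the same length held none, which says nothing of sites outside that window.

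**Figure D2:**
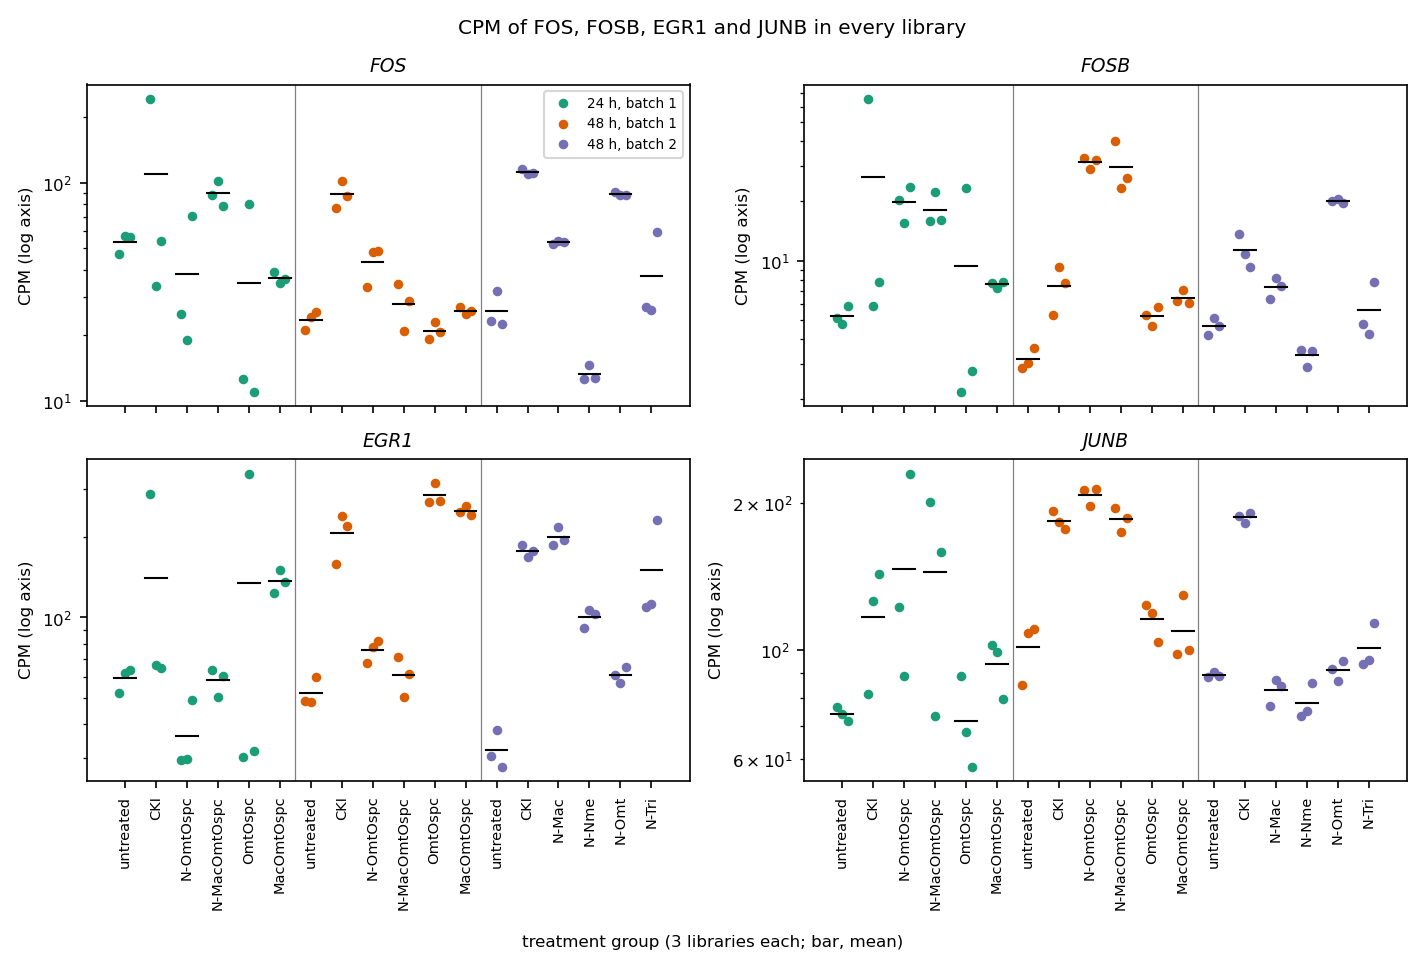
CPM of FOS, FOSB, EGR1 and JUNB (log axis) in each of the 54 libraries by treatment group; points are libraries, colors mark time and batch, and bars are means of 3 libraries. JUNB in batch 2 lies at 182 to 191 CPM with CKI and at 73.5 to 114 CPM in the 15 other libraries.

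FOSL2, which encodes the Fos protein Fra-2, and JUND, a Jun protein that restrains growth in many cells, were highest with the mixtures without oxymatrine. In batch 1 these mixtures also lacked oxysophocarpine, and the removals of these compounds cannot be told apart there. FOSL2 in batch 1 at 48 h had 272, 263 and 278 CPM in untreated libraries and 817, 680.5 and 762 CPM with N-OmtOspc, a log2 fold change of 1.47 (SE 0.088, adjusted p = 9.18e-13). With N-MacOmtOspc it had 437, 569 and 443 CPM. With CKI it was slightly lower than in untreated cells (-0.23, adjusted p = 0.0316), a call lost when 4 of the 6 libraries were left out one at a time and when scaled by totals alone, and MacOmtOspc lowered it too (-0.39, adjusted p = 0.00078). In batch 2 its range over all groups was narrow, from 219 CPM untreated to 304 CPM with N-Omt. N-Tri and N-Mac, which retain oxymatrine, were close to N-Omt, with means of 284 and 281 CPM. JUND in batch 1 at 48 h had 585, 762 and 816 CPM in untreated libraries and 2135, 1828 and 2120.0 CPM with N-OmtOspc, a log2 fold change of 1.49 (SE 0.13, adjusted p = 1.04e-09). With N-MacOmtOspc it had 1595, 2282 and 1640.2 CPM, again above every untreated library. The values with CKI, OmtOspc and MacOmtOspc were near 0 there (0.24, 0.056 and -0.043, none DE; scaled by totals alone, CKI was called and the last was 0.044). In batch 2, where JUND was lower throughout, N-Omt had 521, 500.1 and 597 CPM against 263, 244 and 312 CPM untreated, a log2 fold change of 0.98 (SE 0.077, adjusted p = 3.92e-13). N-Tri was next with 432, 421 and 448 CPM, and neither group overlapped the untreated libraries.

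JUN, the central subunit of AP-1, was higher in every comparison with untreated cells, and its changes were moderate. Its calls with CKI and with OmtOspc at 24 h were each lost in 4 of 6 fits with 1 library left out. At 48 h in batch 1 it went from 295, 327 and 358 CPM to 514, 521 and 513 CPM with CKI and to 894, 854 and 891 CPM with N-OmtOspc. The log2 fold changes were 0.66 (SE 0.077, adjusted p = 2.36e-07) and 1.43 (SE 0.078, adjusted p = 1.6e-13). In batch 2 it went from 279.7, 268 and 289.9 CPM to 421, 421 and 412 CPM with CKI, and the smallest change was that with N-Nme, to 355, 363 and 413 CPM (0.43, SE 0.055, adjusted p = 3.03e-08). No treated library at 48 h lay below the highest untreated library of its batch. N-Omt gave the largest value of batch 2, 1.04, and was higher than CKI by 0.46 (SE 0.055, adjusted p = 6.18e-09).

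JUNB, the Jun protein that counteracts JUN in proliferation, and IER2, a small nuclear protein of the early response, separated CKI from all 4 single removals. JUNB in batch 2 had 188, 182 and 191 CPM with CKI and 88.4, 90.2 and 88.4 CPM in untreated cells, a log2 fold change of 1.07 (SE 0.063, adjusted p = 8.84e-16). The 12 libraries of the single removals lay between 73.5 and 114 CPM. Against CKI their log2 fold changes were -1.17 with N-Mac, -1.26 with N-Nme, -1.04 with N-Omt and -0.89 with N-Tri, all DE, with the largest adjusted p at 4.74e-14. Against untreated cells JUNB was slightly lower with N-Nme (-0.19, not called without N-Nme replicate 1 or 2) and slightly higher with N-Tri (0.18, but 0.088 and not called without N-Tri replicate 3), and not DE with N-Mac (-0.10) or N-Omt (0.032). IER2 had 248, 250.1 and 251 CPM with CKI and 156, 145 and 168 CPM untreated in batch 2 (0.68, SE 0.063, adjusted p = 4.76e-11), and changed against CKI by -0.45 with N-Omt to -0.89 with N-Nme, all DE. In batch 1, JUNB had 184 ± 7.73 CPM (SD, n = 3) with CKI, 208 ± 9.37 CPM with N-OmtOspc and 186 ± 10.5 CPM with N-MacOmtOspc, differences of 0.17 (95% confidence interval -0.035 to 0.38) and 0.013 (-0.20 to 0.22) that were not DE. OmtOspc and MacOmtOspc had 116 ± 10.4 and 109 ± 17.6 CPM against 101 ± 14.4 CPM in untreated cells, were not DE against these (with OmtOspc it was called higher when scaled by totals alone), and lay below CKI (-0.67, SE 0.10, adjusted p = 8.88e-06 and -0.75, SE 0.10, adjusted p = 2.57e-06). IER2 in batch 1 was higher than with CKI in N-OmtOspc (0.86) and N-MacOmtOspc (0.32, not called when scaled by totals alone) and not DE in OmtOspc (-0.015) or MacOmtOspc (-0.029). JUNB overlaps HOOK2 on the opposite strand.

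DUSP1, the phosphatase that inactivates MAP kinases, and IER3 rose with nearly every treatment and of the 5 treatments of batch 2, CKI raised them least. DUSP1 there had 41.5, 36.9 and 57.8 CPM untreated, 91.2, 88.7 and 88.2 CPM with CKI, 157, 152 and 159 CPM with N-Nme, 193, 195 and 221 CPM with N-Tri, 222, 233 and 224 CPM with N-Mac and 346, 334 and 344 CPM with N-Omt. No group of treated libraries overlapped the untreated ones, and no removal overlapped CKI. Against untreated cells the log2 fold change was 0.98 (SE 0.086, adjusted p = 1.68e-11) with CKI and 2.91 (SE 0.086, adjusted p = 4.84e-24) with N-Omt, and the removals exceeded CKI by 0.81 to 1.93. In batch 1 at 48 h DUSP1 had 41.6, 39.7 and 45.2 CPM untreated, 121, 143 and 136 CPM with CKI, 331, 337 and 357 CPM with N-OmtOspc and 176, 179 and 165 CPM with OmtOspc. IER3 in batch 2 had 705, 637 and 876 CPM untreated and 1020.1, 949 and 959 CPM with CKI, a log2 fold change of 0.40 (SE 0.075, adjusted p = 2.36e-05), whereas N-Tri had 2263, 2189.8 and 2328 CPM. All 4 removals exceeded CKI for IER3, by 0.71 with N-Nme to 1.21 with N-Tri. In batch 1 at 48 h IER3 went from 468, 505 and 519 CPM to 1238, 1150.5 and 1207 CPM with CKI and 2949.9, 1742 and 3134 CPM with N-MacOmtOspc, whose replicate 2 lay below the other pair and still above every CKI library. IER3 has an antisense gene, IER3-AS1, counted in the same table.

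**Figure D3:**
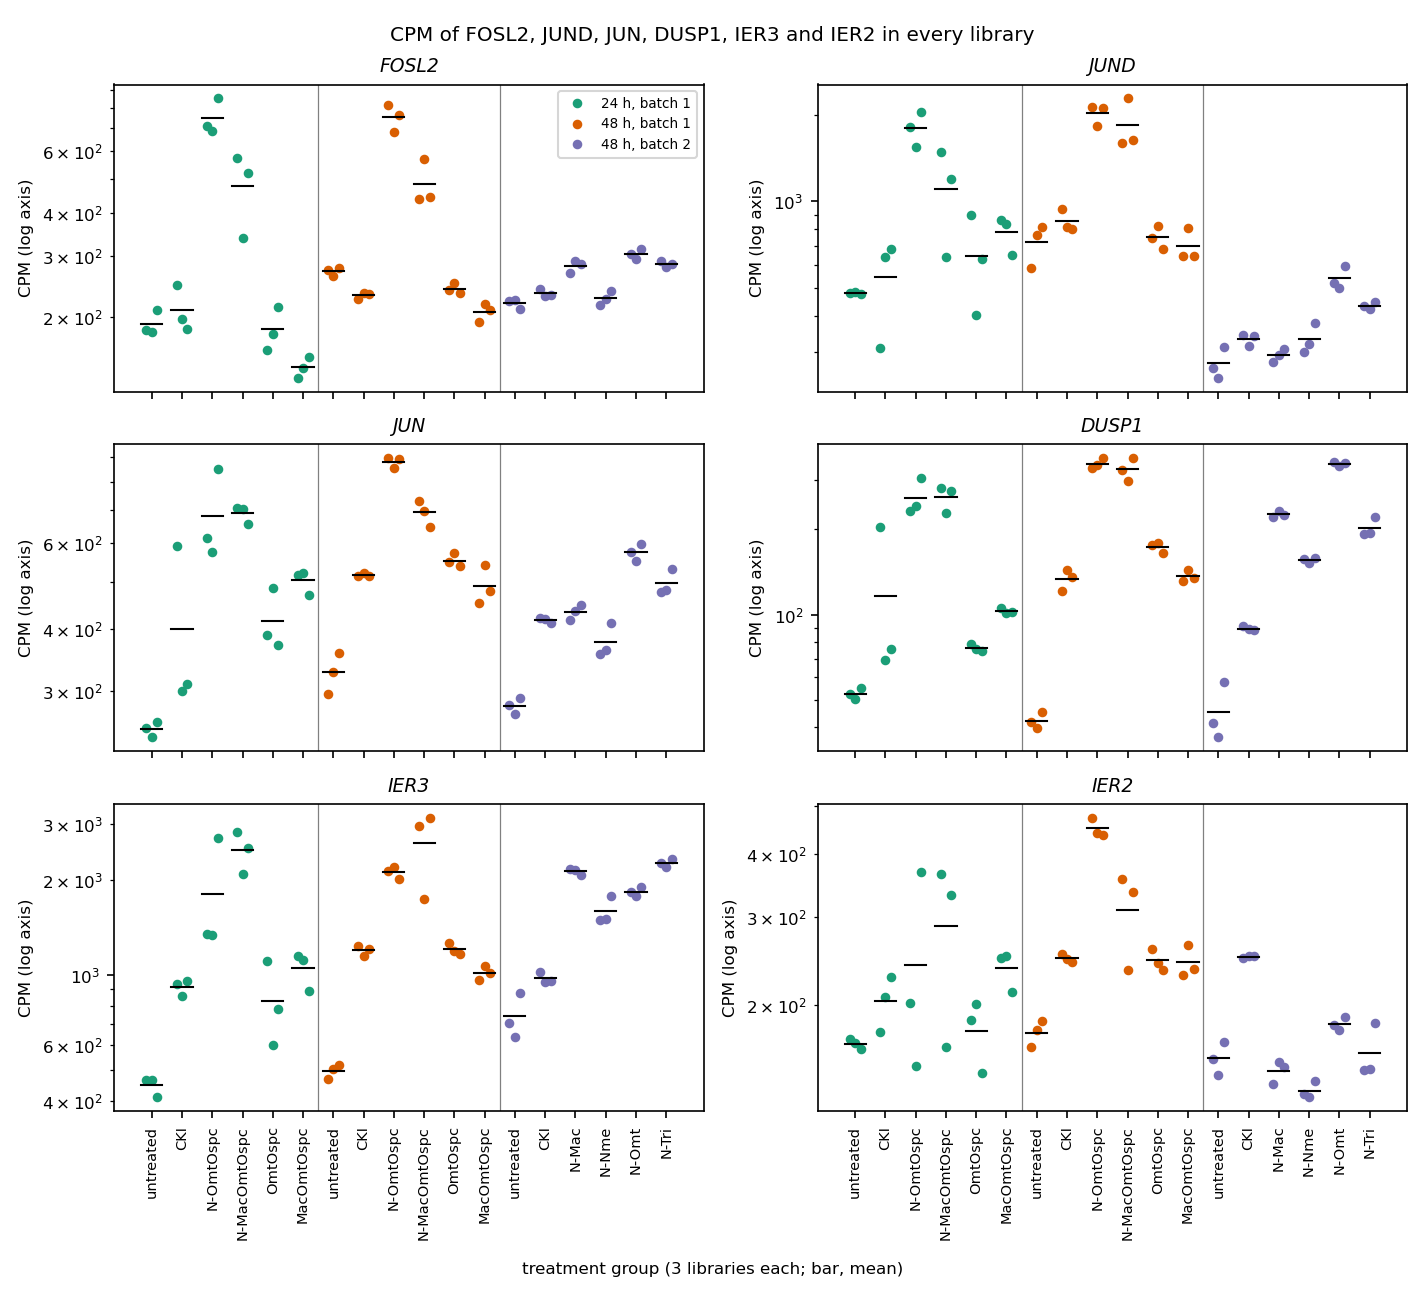
CPM of FOSL2, JUND, JUN, DUSP1, IER3 and IER2 (log axis) in each of the 54 libraries by treatment group; points are libraries, colors mark time and batch, and bars are means of 3 libraries. N-OmtOspc has the highest mean of FOSL2, JUND, JUN, DUSP1 and IER2 at 48 h in batch 1, and the JUND libraries of batch 2 lie at 244 to 597 CPM.

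Set directly against CKI in batch 2, each of the 4 single removals held less FOS, JUNB and IER2 and more IER3 and DUSP1. N-Mac differed from CKI in 8 genes (3 higher and 5 lower, against 35.1% and 34.3% of all genes, 69.4% in all), N-Nme in 8 (2 higher and 6 lower, against 35.8% and 35.7%, 71.5% in all), N-Omt in 10 (6 higher and 4 lower, against 37.1% and 39.2%, 76.3% in all) and N-Tri in 9 (5 higher and 4 lower, against 34.5% and 36.9%, 71.4% in all). These shares are not far from the background, and the 4 comparisons share the same CKI libraries. Their counts in batch 2 in each direction were the same when libraries were scaled by totals alone. In batch 1 at 48 h, N-OmtOspc differed from CKI in 9 genes (7 higher and 2 lower, against 36.0% and 37.1% of all genes, 73.1% in all), N-MacOmtOspc in 9 (7 higher and 2 lower, against 33.1% and 34.1%, 67.2% in all), OmtOspc in 5 (2 higher and 3 lower, against 25.9% and 25.8%, 51.8% in all) and MacOmtOspc in 2, both lower (24.0% of all genes higher and 23.6% lower, 47.6% in all). Scaled by totals alone, N-MacOmtOspc lost IER2 and OmtOspc lost FOSB, and MacOmtOspc gained JUND, called lower than with CKI. The pair that was lower with MacOmtOspc than with CKI under TMM was FOS (-1.77, SE 0.15, adjusted p = 1.52e-09) and JUNB (-0.75, SE 0.10, adjusted p = 2.57e-06). For JUN, IER2 and DUSP1 the difference between MacOmtOspc and CKI was bounded by 95% confidence intervals of -0.23 to 0.084, -0.24 to 0.19 and -0.12 to 0.19 on the log2 scale. These 3 intervals exclude a change of 1 log2 unit.

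**Figure D4:**
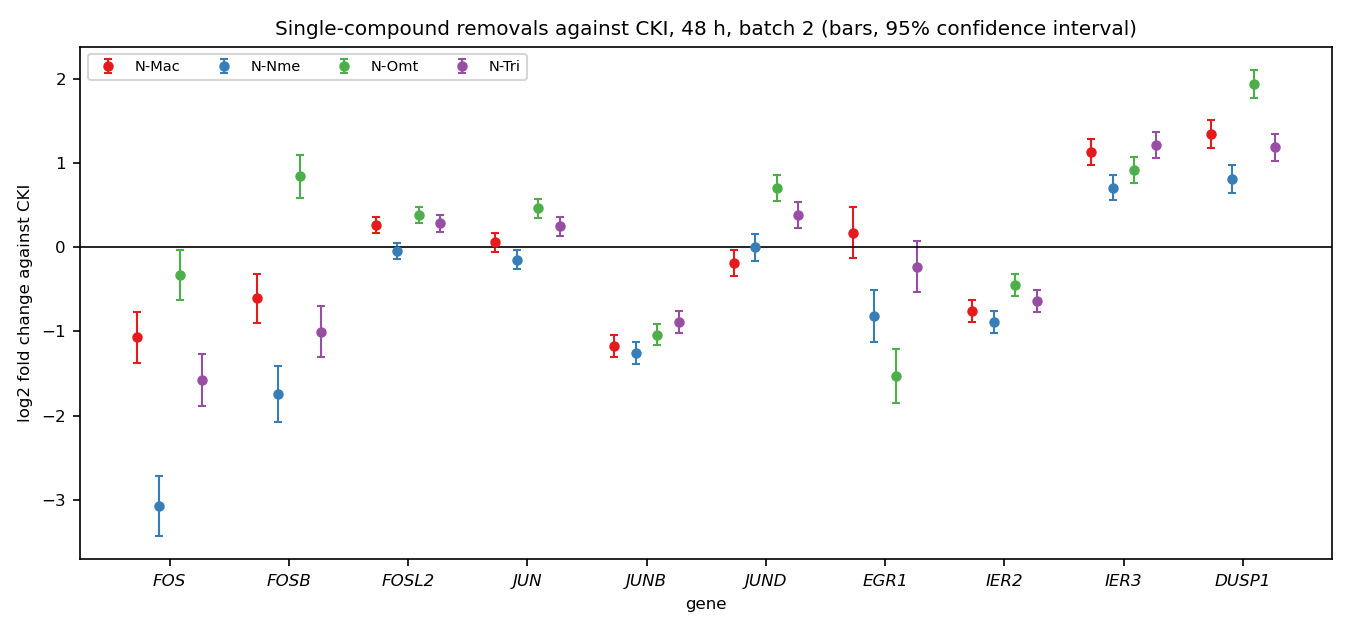
Log2 fold change of each gene for the 4 single-compound removals against CKI at 48 h in batch 2; points are estimates from 3 against 3 libraries and bars 95% confidence intervals. JUNB and IER2 are negative and IER3 and DUSP1 positive in all 4, and FOS ranges from -0.33 with N-Omt to -3.08 with N-Nme.

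The 2 mixtures of purified compounds differ by macrozamin, and few of the 10 genes differed between them. At 48 h MacOmtOspc differed from OmtOspc in 1 of the 10 genes against 1.98% of all genes, DUSP1, at -0.35 (SE 0.076, adjusted p = 0.0161). That call was lost when any of 4 of the 6 libraries was left out. For FOS and EGR1 the 95% confidence intervals of the difference were -0.012 to 0.62 and -0.46 to 0.057. At 24 h none of the 10 was called and none of all genes (0.00%), and at an unadjusted p under 0.05 edgeR's test called 0 of the 10 genes. N-OmtOspc against N-MacOmtOspc compares macrozamin present with absent in CKI already lacking the other pair. At 48 h 4 genes were called, all higher, against 51.0% of all genes (25.1% higher and 25.9% lower). They were FOS by 0.63, FOSL2 by 0.64 (SE 0.087, adjusted p = 2.78e-06), JUN by 0.34 and IER2 by 0.54. At 24 h FOSL2 alone was called (0.65, SE 0.17, adjusted p = 0.00512, against 47.6% of all genes), and without the 3 libraries FOS, FOSL2, JUND and EGR1 were (-1.12, 0.45, 0.42 and -0.78, against 51.8%). This 24 h comparison also depended on the scaling: by totals alone the median of all genes moved by -0.32, FOSL2 (0.35) was not called and IER3 was called lower. At 48 h the same scaling added EGR1 and JUNB to the 4 genes.

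At 24 h the levels of FOS, FOSB, EGR1 and DUSP1 depended on single libraries. With CKI, FOS had 242, 33.6 and 54.2 CPM, FOSB 65.5, 5.90 and 7.81 CPM, EGR1 287, 66.5 and 65.1 CPM and DUSP1 203, 68.9 and 75.9 CPM in replicates 1, 2 and 3. Replicate 1 was the highest in each. With OmtOspc, EGR1 had 30.4, 342 and 31.8 CPM and FOS 12.6, 80.2 and 11.01 CPM, replicate 2 being the highest, against 52.5, 61.9 and 63.8 and 47.1, 56.8 and 56.2 CPM in untreated cells. The same 3 libraries held less JUND than the rest of their groups: 309, 643 and 684 CPM with CKI, 899, 403 and 633 CPM with OmtOspc and 1485, 641 and 1199.7 CPM with N-MacOmtOspc. With all libraries, the genes called were FOSB, JUN, IER3 and DUSP1 with CKI (2.33, 0.68, 1.03 and 1.14), JUN and IER3 with OmtOspc (0.73 and 0.89), and JUN, IER3 and DUSP1 with MacOmtOspc (1.01, 1.23 and 0.97). The calls of FOSB and JUN with CKI were lost without CKI replicate 1 (0.38 and 0.28) or any untreated library, those of JUN and IER3 with OmtOspc without any untreated library, without OmtOspc replicate 2 for JUN (0.60) or without OmtOspc replicate 1 for IER3 (0.63), and that of DUSP1 with MacOmtOspc without any of the 6 libraries. Without the 3 libraries, CKI still changed 4 genes against 32.7% of all genes, but they were JUNB (0.86), JUND (0.47), IER3 (1.02) and DUSP1 (0.46), and FOSB (0.37) and JUN (0.28) were no longer called. OmtOspc then changed 7 against 22.3%, with FOS (-2.18), FOSB (-1.07) and EGR1 (-0.93) lower and JUN, JUND, IER3 and DUSP1 higher. The signs of FOSB and EGR1 with OmtOspc at 24 h therefore depended on replicate 2, which gave 0.84 and 1.18 with all libraries. MacOmtOspc, none of whose own libraries was left out, also gained calls, to 7 against 20.2%, the coefficient of variation of the fit being 0.125 in place of 0.175, with EGR1 higher by 1.20 from 123, 151 and 135 CPM.

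With the mixtures without oxymatrine at 24 h, the calls of FOSL2, JUN, JUND, IER3 and DUSP1 held with each of the 6 libraries compared left out. They also held when scaled by totals alone, although for N-OmtOspc the median of all genes then moved by -0.31. Over all genes, N-MacOmtOspc replicate 2 and N-OmtOspc replicate 3 differed from the rest of their groups by a median of 0.320 and 0.282 on the log2 scale. N-OmtOspc had 712, 686 and 852 CPM of FOSL2 against 183, 182 and 209 CPM in untreated cells, a log2 fold change of 1.97 (SE 0.18, adjusted p = 8.58e-08). For JUND it had 1819.8, 1541 and 2045 CPM against 478, 485 and 477 CPM (1.91, SE 0.32, adjusted p = 7.72e-05) and for DUSP1 233, 242 and 303 CPM against 52.3, 50.5 and 55.02 CPM (2.30, SE 0.29, adjusted p = 3.08e-06). None of these groups overlapped. N-MacOmtOspc raised the same genes by 1.32, 1.21 and 2.31 and IER3 by 2.47 (SE 0.26, adjusted p = 2.08e-06), the largest value of IER3 in any comparison. Its FOSL2 libraries were uneven, with 574, 338 and 522 CPM. JUNB with N-OmtOspc was called (0.99) but had 123, 88.6 and 229 CPM, and the call was lost without replicate 3 (0.51) or when scaled by totals alone. Its levels with N-MacOmtOspc were 201, 73.3 and 159 CPM, and that call (0.96) was lost when any of the 6 libraries except N-MacOmtOspc replicate 2 was left out (0.65 to 0.98) and held without the 3 libraries (1.28). IER2 with N-MacOmtOspc had 365, 165 and 332 CPM, and its call (0.78) was lost in the same 5 cases (0.57 to 0.79) and held without the 3 (1.06). Without the 3 libraries N-OmtOspc changed 8 genes against 68.5% of all genes, FOSB (1.91) and a lower EGR1 (-0.72) being added, and N-MacOmtOspc 8 against 54.2%, with FOSB (1.59) added. Against CKI at 24 h, N-OmtOspc differed in 6 genes (58.7% of all genes called; scaled by totals alone, JUN was lost and FOS added), N-MacOmtOspc in 5 (35.7%), MacOmtOspc in 1 (11.6%), FOSL2 at -0.55, and OmtOspc in none (8.49%; at an unadjusted p under 0.05 edgeR's test called 2 of the 10). Without the 3 libraries OmtOspc differed from CKI in 3, FOS (-1.89), FOSB (-1.45) and EGR1 (-1.08), against 11.2%, and MacOmtOspc in 4 against 14.9%. MacOmtOspc then also exceeded OmtOspc in EGR1 (2.13, adjusted p = 0.000316) and FOSB (1.60, adjusted p = 0.00728), which were 2 of 3 genes called among 15424 (0.0195%), with 2 OmtOspc libraries left. FOS, FOSB and EGR1 were each highest of their group in the OmtOspc and CKI libraries left out. These calls, and those against CKI without the 3 libraries, are therefore not independent of the removal.

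The change of a treatment effect between 24 and 48 h was tested in batch 1 as an interaction. With all 36 libraries DUSP1 had the larger effect at 48 h with OmtOspc, the difference of log2 fold changes being 1.53 (SE 0.30, adjusted p = 0.00121) (1 of the 10 genes against 8.06% of all genes), and so did IER2 (0.86, SE 0.31, adjusted p = 0.0331) and DUSP1 (0.74, SE 0.29, adjusted p = 0.0496) with N-OmtOspc (2 against 34.2%). None of the 10 was called with CKI (0.391% of all genes), N-MacOmtOspc (7.35%) or MacOmtOspc (2.59%), and at an unadjusted p under 0.05 edgeR's test called 0, 2 and 1 of the 10 genes. Without the 3 libraries, CKI had larger effects at 48 h on FOS (2.20, adjusted p = 0.00325), EGR1 (1.83) and DUSP1 (1.20), 3 genes against 1.16% of all genes. The CKI library left out held the highest level of each of these genes in its group, so these calls are not independent of its removal. OmtOspc had more positive changes at 48 h than at 24 h for FOS (2.01), FOSB (1.80), EGR1 (3.38) and DUSP1 (1.49), 4 against 13.7%. The OmtOspc library left out held the highest FOS, FOSB and EGR1 of its group, so their calls are not independent of its removal either. N-OmtOspc then had 6 against 42.5%, N-MacOmtOspc 3 against 14.2% and MacOmtOspc 4 against 8.63%. DUSP1 was called with a larger effect at 48 h in all 5 treatments without these libraries, by 0.57 with N-MacOmtOspc to 1.49 with OmtOspc. All 5 differences share the untreated libraries, in which 5 of the 10 genes were then called from 24 to 48 h (8.38% of all genes): FOS (-1.28), FOSB (-0.82), FOSL2 (0.41), JUND (0.49) and DUSP1 (-0.41), whereas with all libraries in the fit 0 of the 10 genes were called in untreated cells by edgeR's test (1.57% of all genes; FOS -1.29, adjusted p = 0.21; 2 at an unadjusted p under 0.05).

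CKI at 48 h was the 1 treatment given in both batches. In the fit of 12 libraries with batch as a term, 9 of the 10 genes were DE, all higher, against 71.5% of all genes called and 35.7% called higher. FOS changed by 2.03 (SE 0.088, adjusted p = 1.92e-12), EGR1 by 2.22 (SE 0.11, adjusted p = 1.75e-11) and DUSP1 by 1.33 (SE 0.11, adjusted p = 1.21e-08), and FOSL2 at -0.056 (0.021 when scaled by library totals alone) was not called. The CKI effect differed between batches for FOSL2, IER3 and DUSP1, 3 of the 10 genes against 13.8% of all genes. IER3 rose by 1.27 in batch 1 and 0.40 in batch 2, a difference of -0.86 (SE 0.11, adjusted p = 1.93e-05). DUSP1 rose by 1.66 and 0.98, a difference of -0.67 (SE 0.15, adjusted p = 0.00422), and FOSL2 changed by -0.23 and 0.095, a difference of 0.34 (SE 0.064, adjusted p = 0.00138). Untreated cells of the batches differed as well, in 8 of the 10 genes against 60.5% of all genes. From batch 1 to batch 2 JUND changed by -1.47 (SE 0.097, adjusted p = 6.12e-11), EGR1 changed by -0.77, FOSL2 by -0.37, JUN by -0.29, JUNB by -0.25 and IER2 by -0.24, and IER3 (0.51) and FOSB (0.48) were higher. Levels of the mixtures with several compounds removed and of the single removals come from different batches and were therefore compared through CKI and untreated cells only.

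The rest of the pathway was described with 4 lists, whose counts stand against the following shares of all genes at 48 h. With N-OmtOspc 38.3% were higher and 38.3% lower, with CKI 27.0% and 27.0% in batch 1 and 32.3% and 34.2% in batch 2, with N-Omt 38.4% and 39.9%, and with N-Tri 34.8% and 37.4%. Of 14 other AP-1 family members and partners, 11 were higher and 3 lower with N-OmtOspc at 48 h (median log2 fold change 1.22, against 0.016 over all genes tested), 6 and 4 with CKI in batch 1 (median 0.19), and 5 and 5 with CKI in batch 2 (median -0.07), the last being 10 of 14 against 66.4% of all genes called in either direction. FOSL1, which encodes the Fos protein Fra-1, rose with N-MacOmtOspc by 1.47 and with CKI in batch 1 by 0.30, and its 0.05 with CKI in batch 2 was not DE. ATF3, a stress-induced partner, rose by 3.49 with N-OmtOspc and 3.11 with OmtOspc, by only 0.80 with CKI in batch 1, and was not DE with CKI in batch 2 (-0.22). The small Maf protein MAFF was DE and higher in 15 of 15 comparisons, by 0.46 with CKI in batch 2 to 2.19 with N-OmtOspc at 48 h. Of 34 other immediate early genes at 48 h, 27 were higher and 3 lower with N-OmtOspc (median 1.09), 18 and 7 with CKI in batch 1 (median 0.35), 15 and 13 with CKI in batch 2 (median 0.08) and 24 and 7 with N-Tri (median 0.42), against 76.6%, 54.0%, 66.4% and 72.2% of all genes called in either direction. NR4A1, an orphan nuclear receptor, rose by 2.51 with N-OmtOspc and 0.86 with CKI in batch 1. ZFP36, which promotes decay of AU-rich mRNAs, rose with CKI (1.38 and 0.89 in the 2 batches) and was not DE with OmtOspc (0.085). KLF6 fell with CKI in both batches (log2 fold changes of -0.48 and -1.0). MYC fell with CKI in batch 2 (-0.72) and was not DE in batch 1 (-0.014). CCN1, listed in the table under its older symbol CYR61, rose with MacOmtOspc (0.99).

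Upstream of these genes, 18 kinases and factors had median changes nearer to 0 than the 10 genes at 48 h. With N-OmtOspc 2 were higher and 12 lower (median -0.29), with CKI in batch 1 7 and 2 (median 0.14), and with N-Omt 6 and 8 (median 0.02), against 76.6%, 54.0% and 78.2% of all genes in either direction. MAPK8, which encodes the JUN kinase JNK1, changed by -0.62 with N-OmtOspc and 0.27 with OmtOspc. SRF itself was not DE in any of the 5 treatments of batch 1 at 48 h and fell with the 4 single removals, with log2 fold changes from -0.46 to -0.31. Its partner ELK1 changed by -0.42 with N-OmtOspc and ELK3 by -0.40. Of 20 AP-1 target genes, 13 were higher and 2 lower with CKI in batch 1 at 48 h (20 tested, median 1.05) and 8 and 6 with CKI in batch 2 (19 tested, median 0.01), and 15 and 3 with N-Omt (19 tested, median 0.98), against 54.0%, 66.4% and 78.2% of all genes in either direction. MMP1, the interstitial collagenase, was higher in 15 of 15 comparisons, by 1.46 with N-OmtOspc at 24 h to 4.52 with OmtOspc at 48 h. PLAU, which encodes urokinase, was DE and lower in 12 of 15, with the largest change with N-OmtOspc at 48 h (-2.55), while its receptor gene PLAUR rose with N-OmtOspc (0.82). The cytokine genes IL6 and CXCL8 fell with CKI in batch 2 (-2.18 and -2.08), were not DE with CKI in batch 1 (0.16 and -0.23), and rose with N-Mac (2.68 and 4.67). HBEGF, a ligand of the EGF receptor, was higher with CKI in both batches (1.34 and 0.90) and not DE with N-OmtOspc (-0.024). HBEGF belongs to both the early gene and target lists, and SRF to both the early gene and upstream lists.

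Across the 54 libraries the 10 genes formed sets that moved together. After subtraction of the mean of each time and batch, the log2 CPM of DUSP1 correlated with JUN and IER3 at a Pearson r of 0.91 each, and JUN with IER3 at 0.86. JUNB correlated with IER2 at 0.85 and FOSL2 with JUND at 0.80. FOS correlated best with FOSB, at 0.61, and EGR1 had its highest r with FOS, at 0.38, and negative values with JUND (-0.44) and FOSL2 (-0.42). Replicates of a group share a treatment, so these values describe the set of treatments and not 54 independent cultures. Among 9775 other genes whose mean level reached 10 CPM, the gene most similar to each member by the same measure was SLC26A6 for FOS (0.80), CCDC142 for FOSB (0.86), PCDH1 for FOSL2 (0.93), NR4A1 for JUN (0.93), ANKRD13D for JUNB (0.93), MRPS24 for JUND (0.95), ANKRD42 for EGR1 (0.79), WDR83 for IER2 (0.89) and IL1A for both IER3 (0.94) and DUSP1 (0.94). For each member this r exceeded its highest r with another member, so moving together was not particular to the 10 genes.

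**Figure D5:**
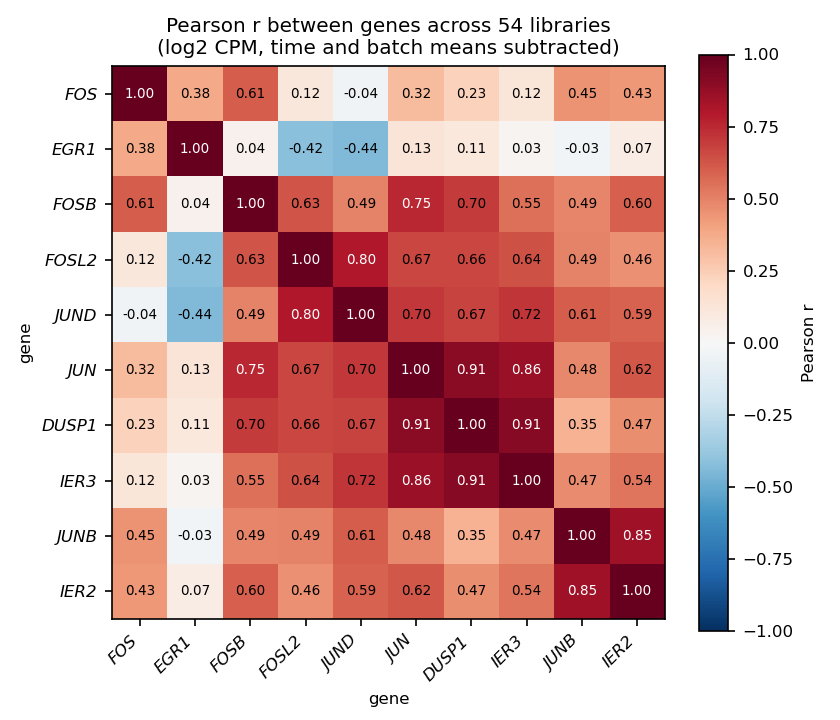
Pearson r of log2 CPM between the 10 genes over 54 libraries, after subtracting the mean of each time and batch. JUN, DUSP1 and IER3 form a block with values of 0.86 to 0.91, and EGR1 is negative with FOSL2 and JUND.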

How the data were processed

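RNA of MDA-MB-231 cells was isolated after 24 or 48 h, selected with oligo(dT), made into strand-specific libraries and sequenced as paired reads on an Illumina HiSeq. The deposited table holds raw read counts per gene symbol. The submitters' processing notes name the build hg19 and FastQC 0.11.4, Trim Galore 0.3.7, STAR 2.5.3a, Subread 1.5.2 with featureCounts, and edgeR 3.22.3, and the counting's strand setting is not given in the sources used here. Without it, reads of FOSB, FOSL2, JUNB and IER3 cannot be told apart from those of genes annotated on the opposite strand. The same holds for IER2 and DUSP1, each overlapped by an antisense gene that the count table lacks.

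Libraries were grouped by their labels. After filterByExpr and TMM scaling, genes were tested by edgeR's quasi-likelihood test (edgeR 4.0.16, R 4.3.3) in 1 fit of 18 libraries for each time and batch, with adjusted p-values over all genes tested and a threshold of 0.05. CKI at 48 h was also tested over both batches with batch as a term (12 libraries), and changes over time over the 36 libraries of batch 1. Intervals are 95% and, like standard errors, rest on the fitted spread between 3 libraries a group, which the submitters call biological replicates with no statement of separate cultures for each. CPM are counts over the TMM-adjusted library total. Exon lengths and gene positions came from the GENCODE annotation of GRCh38. Promoters and motif positions came from RefSeq GRCh38.p14, and no coordinates of hg19 were used. The fit was tested on simulated data with the same spread for all genes and no outlying library. That test does not cover the 24 h libraries that stood apart.

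The members and lists were chosen with earlier results of these data known. The text names all 10 members, 20 context genes set by list whatever their change (2 of them are not reported here), and the 1 most similar gene of each member. Alternatives were DESeq2 1.42.0, RLE size factors, library totals alone, no filter beyond 1 count, a replicate block, a fit of only the 2 groups compared, a fit of all 54 libraries, no batch term, each library left out in turn, and the 3 unnumbered 24 h libraries left out together.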

Additional observations from a re-analysis of the deposited data

Results flagged for a closer look

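Each of these results is a treatment effect that differed between batches or times by a test of the difference itself. Single libraries were not tested within their groups of 3. The effect of CKI at 48 h was smaller in batch 2 than in batch 1 for IER3 (difference of log2 fold changes -0.86, SE 0.11, adjusted p = 1.93e-05) and DUSP1 (-0.67, SE 0.15, adjusted p = 0.00422), and larger for FOSL2 (0.34, SE 0.064, adjusted p = 0.00138). In untreated cells IER3 was itself higher in batch 2, by 0.51 on the log2 scale, whereas DUSP1 differed by 0.038 and was not called. The part of this starting level in the difference was not tested. In batch 1, the effect of N-OmtOspc was larger at 48 h than at 24 h for IER2 (0.86, SE 0.31, adjusted p = 0.0331) and DUSP1 (0.74, SE 0.29, adjusted p = 0.0496), and that of OmtOspc for DUSP1 (1.53, SE 0.30, adjusted p = 0.00121). DUSP1 with OmtOspc had 78.8, 75.8 and 74.5 CPM at 24 h and 176, 179 and 165 CPM at 48 h. Its larger effect was also called without the 3 unnumbered 24 h libraries (1.49).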

How the results depend on the processing

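The 24 h results depended most on the libraries used. Leaving out the 3 unnumbered libraries together changed the number of the 10 genes called from 2 to 7 for OmtOspc and from 3 to 7 for MacOmtOspc against untreated cells, from 0 to 3 and from 1 to 4 for the same mixtures against CKI, from 0 to 2 for MacOmtOspc against OmtOspc and from 1 to 4 for N-OmtOspc against N-MacOmtOspc. The counts of changes over time went to 3 for CKI, 6 for N-OmtOspc, 3 for N-MacOmtOspc, 4 for OmtOspc and 4 for MacOmtOspc. Log2 fold changes against untreated cells that changed sign were those of FOS (-0.29) and FOSL2 (-0.0014) with CKI, EGR1 with N-MacOmtOspc (0.064), and FOSB (-1.07), EGR1 (-0.93) and IER2 (-0.0089) with OmtOspc. In 1 fit of all 54 libraries the counts were 4 for OmtOspc and 6 for MacOmtOspc at 24 h and 4 for N-Nme, and with only the 2 groups compared in the fit that of MacOmtOspc at 24 h was 10. The cause of these shifts was not tested. The shares of all genes called in the fit of all 54 libraries and in that of only the 2 groups are not given here. These counts therefore describe the processing and are not read as results about the 10 genes. Scaling by library totals alone turned the sign of JUND with MacOmtOspc at 48 h (0.044) and of FOSL2 with CKI over both batches (0.021), and ended calls against untreated cells of JUNB with N-OmtOspc at 24 h, FOSL2 with CKI at 48 h in batch 1, and JUNB and IER2 with N-Nme. It added those of JUND with CKI and JUNB with OmtOspc at 48 h in batch 1 and of FOSL2 with CKI in batch 2 and with N-Nme. Against CKI it ended JUN and added FOS with N-OmtOspc at 24 h, ended IER2 with N-MacOmtOspc and FOSB with OmtOspc at 48 h, and added JUND, lower, with MacOmtOspc at 48 h. It moved the share of all DE genes that were higher from 49.7% to 29.3% for N-OmtOspc and from 52.0% to 40.2% for MacOmtOspc against CKI at 24 h, from 49.3% to 39.2% for N-MacOmtOspc against CKI at 48 h, and for N-OmtOspc against N-MacOmtOspc from 50.1% to 25.5% at 24 h and from 49.2% to 65.5% at 48 h. The fit of all 54 libraries ended 20 calls of single genes and added 10. With DESeq2, RLE size factors, no filter beyond 1 count, library totals alone and no batch term, no count of genes called moved by over 1.5 times.

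Leaving out 1 library at a time gave counts of 2 to 4 for CKI and 0 to 2 for OmtOspc against untreated cells at 24 h, 0 to 3 for OmtOspc and 0 to 2 for MacOmtOspc against CKI at 24 h, 1 to 3 for N-OmtOspc against N-MacOmtOspc at 24 h, and 0 to 1 for MacOmtOspc against OmtOspc at 48 h. The shares of all genes called in these fits are not given here. Log2 fold changes whose sign turned ranged, at 24 h, from -0.28 to 1.47 for FOS, from -0.0013 to 0.21 for FOSL2 and from -0.013 to 0.47 for JUND with CKI, from -0.11 to 0.063 for EGR1 with N-MacOmtOspc, and with OmtOspc from -0.93 to 1.65 for EGR1, from -1.08 to 1.30 for FOSB, from -0.17 to 0.034 for FOSL2, from -0.0092 to 0.21 for IER2 and from -0.23 to 0.082 for JUNB. At 48 h they ranged from -0.053 to 0.45 for FOSB and from -0.076 to 0.091 for IER2 with N-Tri, from -0.039 to 0.18 for JUNB and from -0.18 to 0.055 for JUND with MacOmtOspc, and from -0.080 to 0.15 for JUND with OmtOspc. Of these, FOSB with OmtOspc and EGR1 with OmtOspc at 24 h turned with replicate 2. The fits did not pair libraries by replicate number. Deviations from group means were correlated between libraries with the same number, and the median r of a set lay between -0.124 and 0.0485. Single pairs ranged from -0.789 to 0.802, both at 24 h. Correlations this uneven cannot decide whether libraries with the same number were paired. With the replicate block, the count with CKI at 24 h was 3 in place of 4, since FOSB was no longer called (adjusted p = 0.0766), and no other count of the 10 genes changed its call. Low counts limit FOSB, whose untreated libraries lay between 2.88 and 5.89 CPM.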

Other observations

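FOS and FOSB reached their highest levels of all 54 libraries in 1 library, CKI replicate 1 at 24 h, with 242 and 65.5 CPM, and EGR1 reached its highest level in OmtOspc replicate 2 at 24 h, with 342 CPM. JUND and JUNB in these libraries were not raised in the same way: CKI replicate 1 had 309 CPM of JUND and 81.3 CPM of JUNB, against 643 and 126 CPM in replicate 2. N-MacOmtOspc replicate 2 at 24 h had 641 CPM of JUND against 1485 and 1199.7 CPM in the other libraries of its group, and its FOS level of 101 CPM was the highest of the group. In a genome-wide comparison over 9785 genes these 3 libraries differed from the mean of the others of their group by a median of 0.258, 0.239 and 0.320 on the log2 scale, and OmtOspc replicate 1 and N-OmtOspc replicate 3 by 0.316 and 0.282, whereas no library of batch 2 passed 0.103.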
